A study of Mus musculus with 9 samples.

Results

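The collagen genes described here are the 44 genes whose symbol in the deposited count tables has the form of a collagen alpha chain (Col, a type number, the letter a and a chain number), out of 38926 genes listed. They comprise 11 fibrillar collagens, 8 basement membrane collagens (the 6 type IV chains with Col15a1 and Col18a1) and 25 other collagens. Of these, 43 passed the filter on low counts and were tested. The untested gene was Col9a1, with 1 to 8 reads per library. Sensory ganglia of lumbar levels L3 to L5, ipsilateral to the injections, came from male wild-type C57BL/6 mice aged 8 to 10 weeks. The mice had received cisplatin, oxaliplatin or vehicle, each drug being injected into the paw to a cumulative 40 µg. Each group had 3 libraries, and each library held the pooled ganglia of 4 animals, so variation between single animals was not measured. The labels name no transgene, batch or day of collection, and the time between the last dose and dissection is not given in the sources used here.

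Collagens are triple helices of 3 alpha chains. Fibrillar collagens (types I, II, III, V, XI, XXIV and XXVII) form or regulate the banded fibrils of connective tissue. Type IV collagen forms the sheet-like network of basement membranes, which types XV and XVIII link to the tissue around them. Type VI forms beaded filaments beside cells, type VII forms the fibrils that anchor epithelial basement membranes, and the FACIT collagens (such as types IX, XII, XIV, XVI and XIX) sit on fibril surfaces. In peripheral nerve and ganglia, fibroblasts make most fibrillar collagen, and each Schwann cell and neuron-satellite cell unit is wrapped in a basement membrane. Cisplatin and oxaliplatin are platinum drugs that bind DNA and injure sensory neurons; cisplatin carries ammine and chloride ligands, oxaliplatin a diaminocyclohexane and an oxalate ligand.

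The results below turn mainly on Col1a2 and Col6a1, which were higher with both drugs, on Col24a1 and Col7a1, which were lower with both, and on Col4a1, which lies head to head with Col4a2. The 250 bases before the start annotated in RefSeq (GRCm38.p6) are shown for each, 5′ to 3′ on the gene's own strand. GENCODE M21 places some starts elsewhere. There Col1a2 starts at base 4504814, so its window lies inside the gene. Col6a1 starts at base 76726168 on the minus strand, so its window lies partly inside the gene. The Col4a1 window lies inside Col4a2, which starts at base 11312805. Capitals mark every match on either strand to the CCAAT box, which reads ATTGG when it lies on the opposite strand, and to the GC box GGGCGG. No match to the TATA box, searched as TATAAA, lies in these windows, and the searched motifs do not overlap.
Col1a2, chr6:4505368-4505617, plus strand: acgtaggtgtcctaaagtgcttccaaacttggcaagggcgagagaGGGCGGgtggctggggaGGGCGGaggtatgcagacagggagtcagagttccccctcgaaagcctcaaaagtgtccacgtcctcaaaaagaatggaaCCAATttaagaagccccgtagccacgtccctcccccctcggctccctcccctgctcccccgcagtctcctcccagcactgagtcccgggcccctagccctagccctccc
Col6a1, chr10:76726045-76726294, minus strand: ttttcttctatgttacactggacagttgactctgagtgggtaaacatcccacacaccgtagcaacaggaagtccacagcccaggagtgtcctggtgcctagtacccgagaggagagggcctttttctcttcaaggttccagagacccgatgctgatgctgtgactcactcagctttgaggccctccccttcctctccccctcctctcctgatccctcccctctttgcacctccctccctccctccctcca
Col24a1, chr3:145292222-145292471, plus strand: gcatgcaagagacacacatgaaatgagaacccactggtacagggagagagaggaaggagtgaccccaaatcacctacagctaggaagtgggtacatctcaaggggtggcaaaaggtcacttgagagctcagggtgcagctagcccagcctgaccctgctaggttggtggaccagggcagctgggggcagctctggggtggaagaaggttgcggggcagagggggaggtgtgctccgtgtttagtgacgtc
Col7a1, chr9:108953336-108953585, plus strand: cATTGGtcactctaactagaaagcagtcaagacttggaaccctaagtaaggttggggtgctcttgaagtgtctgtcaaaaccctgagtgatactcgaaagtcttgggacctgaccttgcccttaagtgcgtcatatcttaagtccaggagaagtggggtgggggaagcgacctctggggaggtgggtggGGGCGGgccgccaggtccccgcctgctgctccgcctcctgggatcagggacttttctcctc
Col4a1, chr8:11312827-11313076, minus strand: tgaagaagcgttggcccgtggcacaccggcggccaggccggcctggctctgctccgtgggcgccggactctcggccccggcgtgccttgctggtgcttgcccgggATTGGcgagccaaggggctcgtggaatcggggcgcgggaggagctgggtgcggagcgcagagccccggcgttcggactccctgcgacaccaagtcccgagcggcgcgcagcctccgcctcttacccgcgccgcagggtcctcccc

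RefSeq promoter windows were matched for 35 of the 44 collagen genes, giving 38 windows. GGGCGG, the GC box, was found in 22 of these 38 windows (57.9%), against 32.7% of all 32851 windows of the same length. CCAAT was found in 34.2% of collagen windows against 33.8% of all windows, and TATAAA in 13.2% against 12.4%. Windows of collagens higher with both drugs held GGGCGG in 7 of 11, and windows of collagens lower with both drugs in 5 of 7. CCAAT was in 3 of the 11 and in 5 of the 7. These matches describe letters in a window and are not binding sites.

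Libraries held 22819185 to 38808509 gene reads, and collagen genes took 0.323 to 0.378% of them in cisplatin libraries, 0.340 to 0.375% in oxaliplatin libraries and 0.197 to 0.264% in vehicle libraries. The lowest share, of vehicle library 2, had an exact binomial 95% interval of 0.195 to 0.199%, for counting error only. That library stood apart, since its 10 most abundant genes took 32.9% of gene reads, against 6.81 to 8.93% in the other 8 libraries. Uniquely aligned reads outside genes made up 18.6 to 19.1% in cisplatin, 16.6 to 17.8% in oxaliplatin and 26.2 to 47.7% in vehicle libraries. This share was highest in vehicle libraries, and its part in the results below was not tested. Levels are CPM, the reads of a gene per fixed number of gene reads, after TMM scaling, which sets libraries to a common level by the bulk of genes. Fold changes are log2 of drug over vehicle with 95% intervals from edgeR's quasi-likelihood test, and a gene was called at a Benjamini-Hochberg adjusted p under 0.05 over all 17348 genes tested.

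With cisplatin, 21 of the 43 tested collagens were called: 14 rose, 7 fell and 22 did not pass the test. Over all genes tested, 15.8% rose and 22.9% fell with cisplatin. With oxaliplatin, 24 were called: 16 rose, 8 fell and 19 did not pass, where 17.5% of all genes rose and 24.1% fell. The median log2 fold change of the collagens was 0.19 with cisplatin and 0.25 with oxaliplatin, against 0.00 over all genes in both comparisons. Both comparisons use the same vehicle libraries. Groups did not overlap for 25 of the 43 collagens with cisplatin and 29 with oxaliplatin, against 48% and 50.5% of all genes. By the test against vehicle, 12 collagens rose with both drugs (Col1a1, Col1a2, Col3a1, Col4a1, Col5a1, Col5a2, Col6a1, Col6a2, Col8a2, Col18a1, Col23a1 and Col26a1), 7 fell with both (Col5a3, Col7a1, Col11a1, Col16a1, Col19a1, Col24a1 and Col25a1), with no collagen called in opposite directions. With libraries scaled by their totals alone, which moved the median of all genes to 0.29 with cisplatin and 0.30 with oxaliplatin, 25 collagens rose and 2 fell with cisplatin, and 27 rose and 2 fell with oxaliplatin. In that scaling 34.5% of all genes rose and 5.29% fell with cisplatin, and 36.9% rose and 5.74% fell with oxaliplatin. Without vehicle library 2, the TMM-scaled counts were 16 higher and 7 lower with cisplatin and 17 higher and 8 lower with oxaliplatin. Then 19.2% of all genes rose and 22.1% fell with cisplatin, and 20.4% rose and 23% fell with oxaliplatin. Because these are bulk ganglia, fewer or more cells of a type and less or more RNA per cell cannot be told apart.

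**Figure D1:**
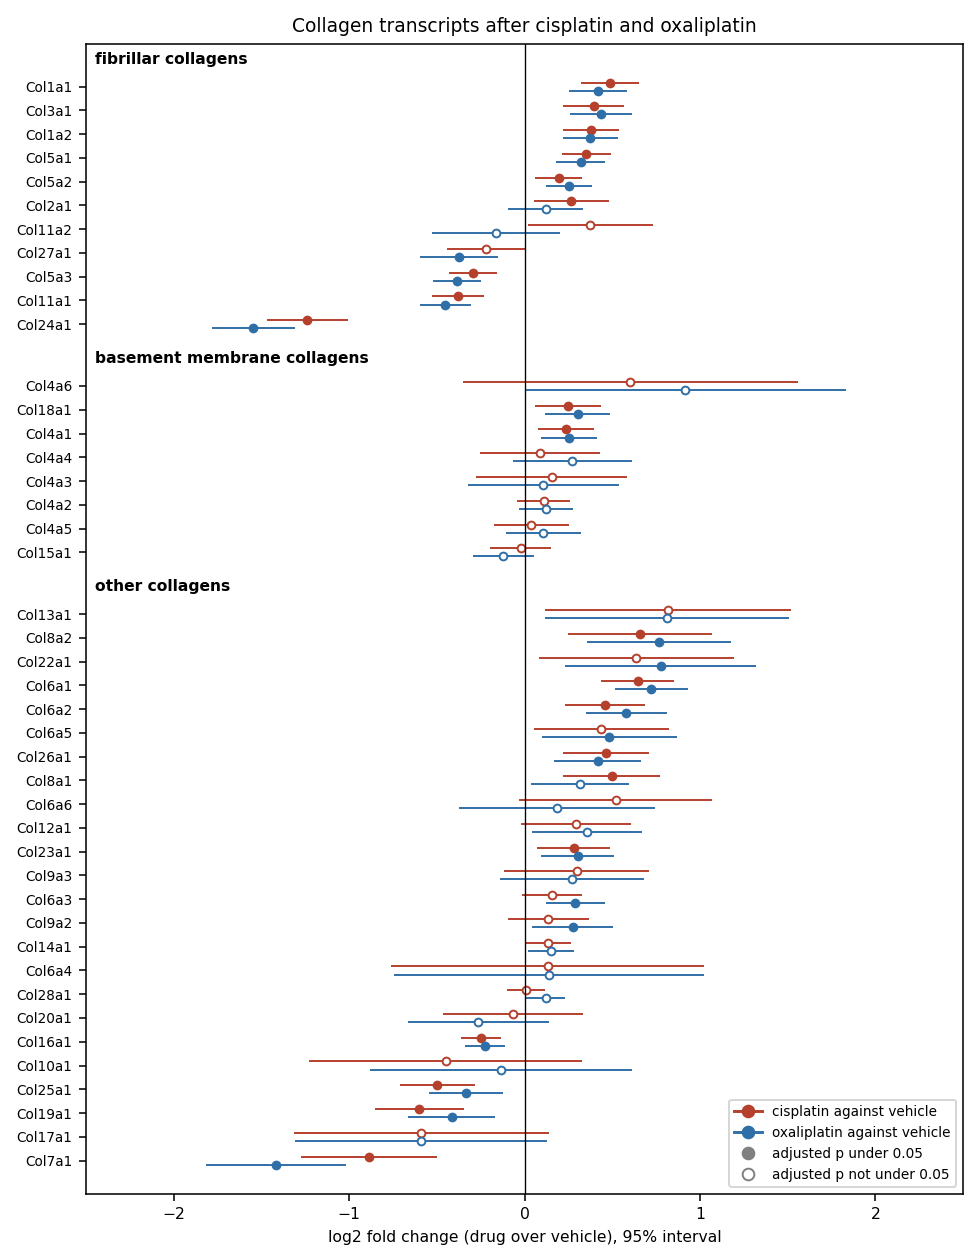
Log2 fold change over vehicle (x axis, drug over vehicle) of the 43 tested collagens (y axis, by class), for cisplatin in red and oxaliplatin in blue, with 95% intervals; filled points have an adjusted p under 0.05. Col24a1 and Col7a1 lie farthest to the left among called genes, at -1.24 and -0.89 with cisplatin and at -1.55 and -1.42 with oxaliplatin, while 6 of the 8 basement membrane collagens have open points for both drugs.

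Among the 11 fibrillar collagens, 6 rose and 3 fell with cisplatin, where 15.8% of all genes rose and 22.9% fell. With oxaliplatin 5 rose and 4 fell, where 17.5% of all genes rose and 24.1% fell. The chains of the major fibrils rose. Col1a1, the alpha-1 chain of type I collagen, had 402, 439 and 412 CPM in cisplatin libraries and 365, 416 and 416 CPM in oxaliplatin libraries, against 282, 321 and 293 CPM in vehicle libraries. Every drug library stood above every vehicle library, and the log2 fold change was 0.49 with cisplatin (95% interval 0.33 to 0.65, adjusted p = 0.000379) and 0.42 with oxaliplatin (0.26 to 0.58, adjusted p = 0.000915). Its partner Col1a2, the alpha-2 chain of the same helix, had 629, 644 and 583 CPM with cisplatin and 585, 631 and 633 CPM with oxaliplatin, against 455, 493 and 480 CPM with vehicle. The groups did not overlap, and the change was 0.38 with cisplatin and 0.37 with oxaliplatin. Col3a1, the single chain of type III collagen of pliable tissue, stood at 653, 696 and 580 CPM with cisplatin and 633, 687 and 665 CPM with oxaliplatin, against 477, 511 and 481 CPM with vehicle, a change of 0.39 with cisplatin and 0.43 with oxaliplatin.

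Type V collagen, which starts type I fibrils and limits their width, split by chain. Col5a1 had 84.6, 87.8 and 77.3 CPM with cisplatin and 78.3, 82.6 and 83.1 CPM with oxaliplatin, against 62.5, 63.1 and 69.8 CPM with vehicle, and rose by 0.35 with cisplatin and 0.32 with oxaliplatin. Its usual partner Col5a2 rose less, averaging 99.7 ± 7.39 CPM with cisplatin and 104 ± 1.05 CPM with oxaliplatin, against 87.2 ± 3.55 CPM with vehicle (SD, n = 3 each). That was a change of 0.19 with cisplatin and 0.25 with oxaliplatin. The cisplatin call of Col5a2 was lost when vehicle library 3, cisplatin library 1 or cisplatin library 2 was left out. Col5a3, the third type V chain, fell instead. It had 72.8, 77.9 and 74.5 CPM with cisplatin and 68.9, 71.7 and 70.9 CPM with oxaliplatin, against 88.2, 86.6 and 101 CPM with vehicle. All 6 drug libraries lay below all 3 vehicle libraries, with a change of -0.30 with cisplatin (95% interval -0.43 to -0.17) and -0.39 with oxaliplatin (-0.52 to -0.26), and both calls were lost when library totals alone were used.

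Col24a1, a minor fibrillar collagen known mainly from developing bone and cornea, fell the most of any called collagen with both drugs. It had 6.77, 7.67 and 7.90 CPM in cisplatin libraries and 6.59, 5.47 and 6.01 CPM in oxaliplatin libraries, against 16.2, 16.5 and 19.9 CPM in vehicle libraries. No drug library came near a vehicle library, and the log2 fold change was -1.24 with cisplatin (95% interval -1.46 to -1.01, adjusted p = 1.57e-05) and -1.55 with oxaliplatin (-1.78 to -1.32, adjusted p = 2.83e-06). Col11a1, a chain of type XI collagen that nucleates cartilage fibrils, had 36.6, 36.1 and 38.0 CPM with cisplatin and 37.8, 32.3 and 35.3 CPM with oxaliplatin, against 48.5, 45.4 and 49.9 CPM with vehicle. It fell by 0.38 with cisplatin and by 0.45 with oxaliplatin on the log2 scale. Library totals alone ended both calls, and the cisplatin call also ended once a per-library trend on base composition and length was taken out (the GC and length trend).

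The remaining fibrillar genes gave weaker readings. Col27a1, a cartilage fibrillar collagen, averaged 7.47 ± 0.261 CPM with cisplatin and 6.72 ± 0.0283 CPM with oxaliplatin, against 8.67 ± 1.21 CPM with vehicle (SD, n = 3 each). The fall with oxaliplatin passed the test (-0.37, adjusted p = 0.0106) and the cisplatin value did not (-0.22, adjusted p = 0.0990), and the oxaliplatin call was lost with library totals alone, with the GC and length trend removed and without vehicle library 3. Col2a1, the main chain of cartilage fibrils, averaged 5.36 ± 0.256 CPM with cisplatin and 4.84 ± 0.216 CPM with oxaliplatin, against 4.47 ± 0.220 CPM with vehicle. Only the cisplatin value was called (0.27, adjusted p = 0.0433), and that call was lost under DESeq2, limma-voom and the omission of several single libraries. Col11a2 did not pass with either drug, at 0.38 with cisplatin and -0.16 with oxaliplatin.

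**Figure D2:**
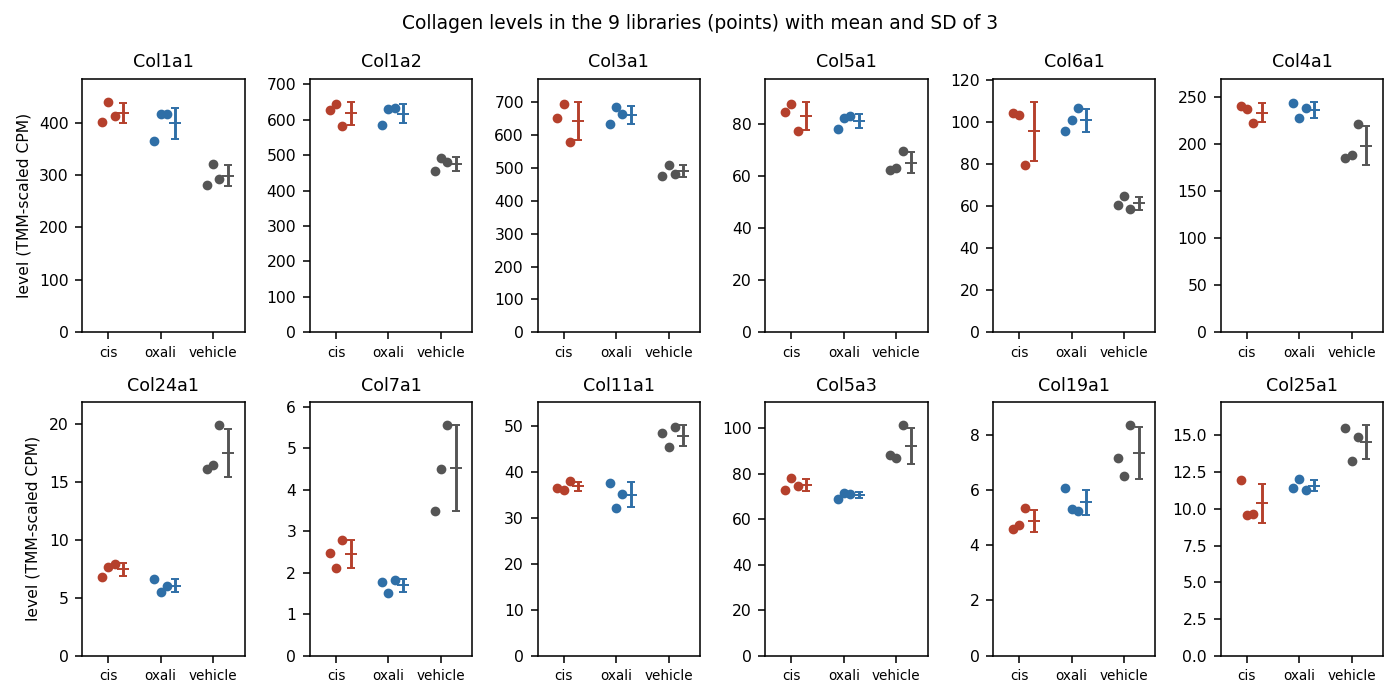
TMM-scaled CPM (y axis) of 12 collagens in each of the 9 libraries (points), by group along the x axis, with the mean and SD of 3 libraries beside each group. In the upper row the drug libraries lie above the vehicle libraries, as for Col6a1 with at least 79.5 CPM in drug libraries and at most 64.8 CPM in vehicle libraries; in the lower row they lie below, as for Col24a1 with at most 7.90 CPM in drug libraries and at least 16.2 CPM in vehicle libraries.

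Of the 8 basement membrane collagens, 2 rose and 6 did not pass with either drug, a share called of 25% beside 38.7% of all genes with cisplatin and 41.6% with oxaliplatin. Without vehicle library 1, no basement membrane collagen was called with cisplatin in edgeR's test, where 27.7% of all genes were. Col4a1, which with Col4a2 forms the most widespread type IV helix, had 240, 237 and 222 CPM with cisplatin and 244, 227 and 238 CPM with oxaliplatin, against 185, 188 and 222 CPM with vehicle. The groups did not overlap, but vehicle library 3 lay only just under the lowest drug library. The change was 0.23 with cisplatin (95% interval 0.08 to 0.39, adjusted p = 0.0213) and 0.25 with oxaliplatin (0.10 to 0.41, adjusted p = 0.0136), and the cisplatin call was lost without vehicle library 1, cisplatin library 1 or cisplatin library 2. Col4a2 had 121, 120 and 113 CPM with cisplatin and 121, 114 and 123 CPM with oxaliplatin, against 101, 105 and 122 CPM with vehicle. Its groups overlapped and it did not pass, at 0.11 with cisplatin (95% interval -0.04 to 0.25) and 0.12 with oxaliplatin (-0.02 to 0.27). The genes lie head to head on chromosome 8 and share 22 bases of exon on opposite strands in GENCODE M21, so reads there cannot be assigned to one of them where strand was not used.

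The other type IV chains, which form the networks of kidney, lung and smooth muscle basement membranes, were low and did not pass the test. Col4a3 averaged 3.18 ± 0.733 CPM with cisplatin, 3.08 ± 0.569 CPM with oxaliplatin and 2.82 ± 0.355 CPM with vehicle. Its head-to-head neighbour Col4a4, 71 bases away on chromosome 1, had 4.07 to 5.01 CPM with cisplatin, 4.13 to 6.11 CPM with oxaliplatin and 3.80 to 4.51 CPM with vehicle. Col4a5, on chromosome X, averaged 9.23 ± 0.574 CPM with cisplatin, 9.67 ± 0.645 CPM with oxaliplatin and 9.06 ± 0.950 CPM with vehicle. Col4a6, its neighbour at 1308 bases, averaged 0.480 ± 0.226, 0.592 ± 0.131 and 0.308 ± 0.118 CPM, with only 5 to 29 reads per library. In edgeR's test its log2 fold change was 0.60 with cisplatin (adjusted p = 0.296) and 0.92 with oxaliplatin (adjusted p = 0.0982). Its oxaliplatin libraries all lay above its vehicle libraries, and 2 of 22 alternatives called that rise. A change of moderate size was not detectable at this depth. Col18a1, a basement membrane proteoglycan core whose cleaved end is endostatin, had 36.8, 32.5 and 28.8 CPM with cisplatin and 33.5, 34.4 and 33.9 CPM with oxaliplatin, against 25.5, 28.8 and 28.4 CPM with vehicle. It rose by 0.25 with cisplatin and 0.30 with oxaliplatin, but the cisplatin group only just cleared the vehicle group and that call was lost in a fit of those groups alone and without any of 4 single libraries. Col15a1 averaged 96.9 ± 7.95 CPM with cisplatin, 90.5 ± 4.43 CPM with oxaliplatin and 98.6 ± 9.58 CPM with vehicle, and did not pass (-0.02 and -0.12).

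Of the 6 tested type VI chains, 2 rose with cisplatin and 4 with oxaliplatin, and the others did not pass. That is 33.3% and 66.7% of the chains called, beside 38.7% and 41.6% of all genes. Col6a1 had 104, 103 and 79.5 CPM in cisplatin libraries and 95.7, 101 and 107 CPM in oxaliplatin libraries, against 60.7, 64.8 and 58.7 CPM in vehicle libraries. Cisplatin library 3 was the lowest drug library and still lay above all vehicle libraries. The log2 fold change was 0.64 with cisplatin (95% interval 0.44 to 0.84, adjusted p = 0.000269) and 0.72 with oxaliplatin (0.52 to 0.92, adjusted p = 0.000107). Col6a2, which lies on the same strand of chromosome 10 and joins Col6a1 in each type VI helix, had 88.7, 88.7 and 64.3 CPM with cisplatin and 82.5, 88.6 and 91.7 CPM with oxaliplatin, against 58.6, 61.0 and 56.6 CPM with vehicle. It rose by 0.46 with cisplatin and by 0.58 with oxaliplatin. Col6a3, the long chain that completes the helix, averaged 86.1 ± 6.19 CPM with cisplatin, 94.6 ± 3.81 CPM with oxaliplatin and 77.5 ± 7.97 CPM with vehicle. It passed with oxaliplatin (0.29, adjusted p = 0.00935) and not with cisplatin (0.15, adjusted p = 0.126). The chains that can replace Col6a3 were low: Col6a5 was called with oxaliplatin (0.48, adjusted p = 0.0415), a call lost in a fit of those groups alone and without vehicle library 3, oxaliplatin library 2 or oxaliplatin library 3, and Col6a4 and Col6a6 passed with neither drug.

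Col7a1, the anchoring fibril chain of skin, was a low transcript that fell with both drugs. It had 2.47, 2.12 and 2.79 CPM in cisplatin libraries and 1.77, 1.52 and 1.81 CPM in oxaliplatin libraries, against 3.49, 4.51 and 5.56 CPM in vehicle libraries. Every drug library lay below every vehicle library, and the change was -0.89 with cisplatin (95% interval -1.27 to -0.50, adjusted p = 0.00206) and -1.42 with oxaliplatin (-1.81 to -1.02, adjusted p = 0.000108). A microRNA gene, Mir711, shares 36 bases with its exons on the same strand.

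A further 3 collagens of the mixed class fell with both drugs. Col16a1, a FACIT collagen, had 38.7, 38.6 and 40.0 CPM with cisplatin and 39.0, 39.9 and 40.4 CPM with oxaliplatin, against 45.1, 45.7 and 48.4 CPM with vehicle. Its libraries were tightly grouped, at -0.25 with cisplatin and -0.22 with oxaliplatin, but under library totals alone the sign turned, to 0.04 with cisplatin and 0.08 with oxaliplatin, and both calls also ended with the GC and length trend removed. Col19a1, a FACIT collagen first studied in muscle and later in synapse formation, had 4.59, 4.75 and 5.34 CPM with cisplatin and 6.09, 5.33 and 5.26 CPM with oxaliplatin, against 7.16, 6.51 and 8.35 CPM with vehicle. The groups did not overlap, with -0.60 for cisplatin and -0.42 for oxaliplatin, both calls were lost under library totals alone, and the oxaliplatin call also without vehicle library 3. Col25a1, a transmembrane collagen of neurons that acts in motor innervation of muscle in mice, had 11.9, 9.57 and 9.62 CPM with cisplatin and 11.4, 12.0 and 11.3 CPM with oxaliplatin, against 15.5, 13.3 and 14.9 CPM with vehicle. The fall was 0.50 with cisplatin and 0.34 with oxaliplatin on the log2 scale, both calls being lost under library totals alone and with the GC and length trend removed. The oxaliplatin call was also lost without vehicle library 1 or oxaliplatin library 3, and its sign turned, to 0.008, when that trend was removed without vehicle library 2.

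Col28a1, a collagen that in mouse is found mainly around peripheral glia, was the most abundant of the mixed class per kb. It had 130, 121 and 128 CPM with cisplatin and 134, 138 and 136 CPM with oxaliplatin, against 122, 123 and 131 CPM with vehicle, and passed with neither drug (0.01 with cisplatin, 95% interval -0.10 to 0.11, and 0.12 with oxaliplatin, 0.02 to 0.22, adjusted p = 0.0640). The oxaliplatin value was called higher in 11 of 23 alternatives, DESeq2 among them. The other members that rose with both drugs were Col8a2, a short-chain network collagen, by 0.66 with cisplatin and 0.77 with oxaliplatin, Col26a1 by 0.46 and 0.42, and the transmembrane Col23a1 by 0.28 and 0.30. The cisplatin call of Col8a2 was lost without vehicle library 3 or cisplatin library 1, and that of Col23a1 without vehicle library 1, vehicle library 2 or cisplatin library 1. The oxaliplatin call of Col23a1 was lost without vehicle library 1 or oxaliplatin library 3. Col8a1, the partner of Col8a2, was called with cisplatin (0.50, adjusted p = 0.00852) and not with oxaliplatin (0.31, adjusted p = 0.0625), although 14 of 23 alternatives, DESeq2 and limma-voom among them, called the oxaliplatin rise. Col22a1 (0.77, adjusted p = 0.0252) and Col9a2 (0.27, adjusted p = 0.0493) were called with oxaliplatin and not with cisplatin, and both calls were lost without vehicle library 1, oxaliplatin library 2 or oxaliplatin library 3, among others. The 9 tested members of this class that passed with neither drug were Col6a4, Col6a6, Col9a3, Col10a1, Col12a1, Col13a1, Col14a1, Col17a1 and Col20a1, apart from Col28a1. Of these, Col12a1 and Col14a1, FACIT collagens of dense connective tissue, were abundant: Col12a1 averaged 164 ± 23.8, 171 ± 11.5 and 134 ± 29.8 CPM with cisplatin, oxaliplatin and vehicle, and Col14a1 averaged 52.1 ± 2.59, 52.8 ± 2.30 and 47.6 ± 2.20 CPM.

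Compared per kb of the principal transcript, so that genes can be set against each other, the collagens spanned more than 3 orders of magnitude on a log10 scale. Col3a1 stood at 116 ± 10.5 CPM per kb with cisplatin, 119 ± 4.89 with oxaliplatin and 88.0 ± 3.27 with vehicle (SD, n = 3 each). Col1a2 stood at 116 ± 5.98, 115 ± 5.05 and 89.0 ± 3.67 CPM per kb, which does not differ from Col3a1 beyond the spread. Col1a1 followed at 70.5 ± 3.28, 67.2 ± 4.97 and 50.3 ± 3.45 CPM per kb, and then Col4a1 at 35.2 ± 1.48, 35.7 ± 1.26 and 30.0 ± 3.08. Col4a1 and Col28a1, the next in order, did not differ beyond their spread in vehicle libraries, where Col28a1 stood at 29.6 ± 1.10 CPM per kb. By their means, the order below these differed between groups. In vehicle libraries Col15a1 (19.1 CPM per kb) and Col4a2 (17.0) came before Col5a3 (15.04), Col6a1 (14.98) and Col6a2 (14.87). With cisplatin Col6a1 (23.4) and Col6a2 (20.4) came before Col15a1 (18.7) and Col4a2 (18.3), as they did with oxaliplatin. The cisplatin mean of Col6a2 (SD 3.56) did not differ from those of Col15a1 (SD 1.54) and Col4a2 (SD 0.696) beyond the spread. Nor did the vehicle means of Col4a2 (SD 1.68) and Col5a3 (SD 1.30) differ beyond it. The 3 genes Col1a1, Col1a2 and Col3a1 together held 49.5 to 51.1% of collagen reads with cisplatin, 48.8 to 51.0% with oxaliplatin and 45.2 to 47.0% with vehicle. Basement membrane collagens held 13.7 to 14.3%, 13.2 to 14.6% and 14.6 to 16.5% of the summed collagen level per kb in the same groups.

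**Figure D3:**
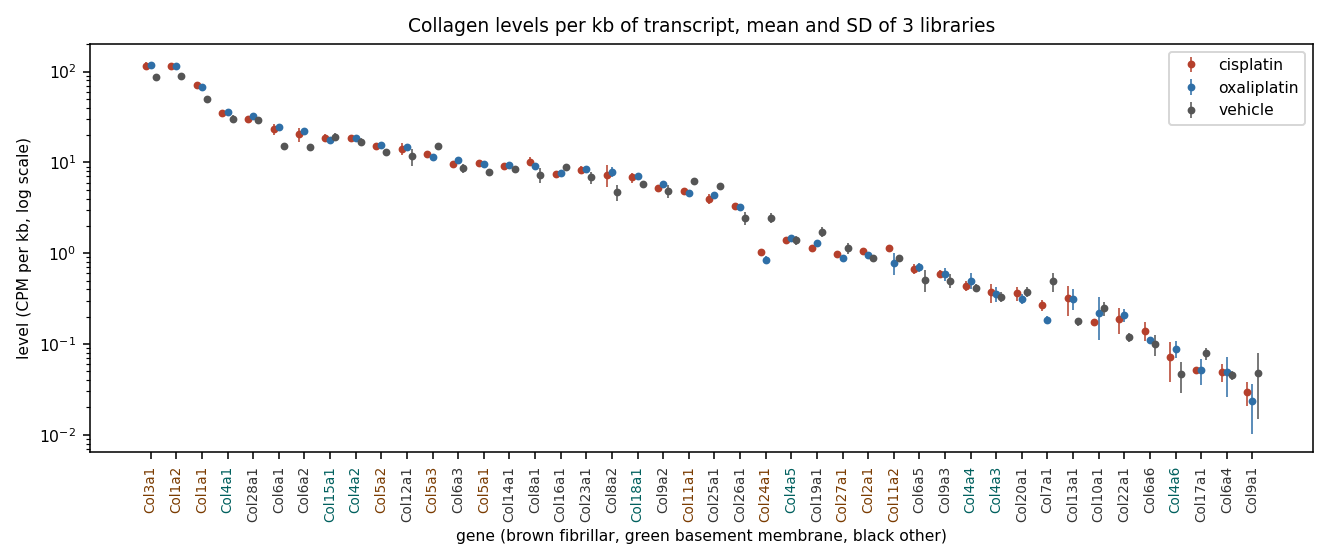
Mean level per kb of principal transcript (y axis, CPM per kb, log scale) of all 44 collagens, ordered by their mean over the 9 libraries, with the SD of 3 libraries for cisplatin (red), oxaliplatin (blue) and vehicle (grey). Col3a1, Col1a2 and Col1a1 lie above all others in every group.

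Ratios between chains within a library do not depend on how libraries are scaled, and 10 were computed from levels per kb. The pairs were picked by hand, without a set rule. Col5a3 over Col5a1 was 1.18, 1.22 and 1.33 with cisplatin and 1.21, 1.19 and 1.17 with oxaliplatin, against 1.94, 1.89 and 1.99 with vehicle. Col11a1 over Col5a1 was 0.475, 0.451 and 0.540 with cisplatin and 0.529, 0.429 and 0.466 with oxaliplatin, against 0.852, 0.789 and 0.784 with vehicle. Col24a1 over Col1a1 averaged 0.0148 ± 0.000998 with cisplatin and 0.0126 ± 0.00211 with oxaliplatin, against 0.0489 ± 0.00701 with vehicle. In these 3 ratios the drug libraries all lay below the vehicle libraries. Each of the 3 divides a chain called lower with both drugs by a chain called higher with both. Their separation therefore follows from those calls and adds no separate support. Col4a1 over Col4a2 was 1.93, 1.92 and 1.92 with cisplatin and 1.96, 1.95 and 1.89 with oxaliplatin, against 1.77, 1.74 and 1.77 with vehicle, so that all 6 drug libraries lay above. Col6a1 over Col6a3 averaged 2.43 ± 0.231 with cisplatin and 2.35 ± 0.0628 with oxaliplatin, against 1.75 ± 0.150 with vehicle, also without overlap. Col6a1 over Col6a2 averaged 1.15 ± 0.0368 with cisplatin, 1.11 ± 0.0123 with oxaliplatin and 1.01 ± 0.0146 with vehicle. The other 4 ratios overlapped vehicle with at least 1 drug. Col1a1 over Col1a2 averaged 0.610 ± 0.0311, 0.582 ± 0.0181 and 0.565 ± 0.0196 with cisplatin, oxaliplatin and vehicle, overlapping with both drugs. Col3a1 over Col1a1 averaged 1.64 ± 0.123, 1.77 ± 0.0729 and 1.75 ± 0.0563, and Col5a1 over Col5a2 averaged 0.659 ± 0.0158, 0.618 ± 0.0223 and 0.590 ± 0.0615, also overlapping with both. Col8a1 over Col8a2 averaged 1.44 ± 0.244 with cisplatin, overlapping the 1.56 ± 0.0755 with vehicle, and 1.15 ± 0.107 with oxaliplatin, without overlap. With 3 libraries against 3, an exact two-sided permutation test cannot give a p below 0.1, so these ratios are given without one.

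**Figure D4:**
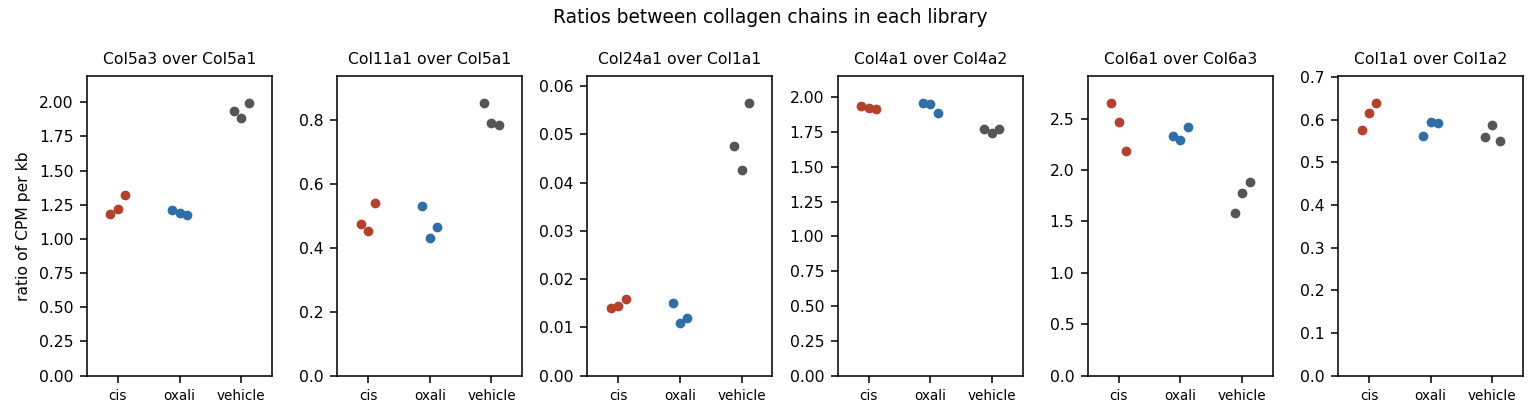
Ratio of levels per kb between pairs of collagen chains (y axis) in each of the 9 libraries (points), by group along the x axis. Col5a3 over Col5a1 lies at 1.17 to 1.33 in drug libraries and 1.89 to 1.99 in vehicle libraries, whereas Col1a1 over Col1a2 overlaps between groups.

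The direct comparison of the drugs at their matched cumulative dose was 1 pair of compounds read over 43 collagens. In edgeR's test none was called, where 2 of all 17348 genes were (0.0115%), and DESeq2 and limma-voom also called none. Libraries of the drugs did not overlap for 6 collagens higher with cisplatin and 1 lower, against 8.04% and 6.1% of all genes. At an unadjusted p under 0.05 there were 4: Col11a2, Col24a1, Col7a1 and Col28a1. Col11a2 was 0.54 higher with cisplatin on the log2 scale (95% interval 0.20 to 0.87, adjusted p = 0.619), with 6.42, 5.83 and 6.30 CPM in cisplatin libraries and 3.88, 5.52 and 3.34 CPM in oxaliplatin libraries. Col7a1 was 0.53 higher (0.13 to 0.93, adjusted p = 0.719) and Col24a1 0.31 higher (0.07 to 0.54, adjusted p = 0.723) with cisplatin than with oxaliplatin. Col28a1 was at -0.11 (-0.21 to -0.01, adjusted p = 0.767). For Col1a1 the difference was 0.07 (95% interval -0.09 to 0.23), for Col3a1 -0.04 (-0.21 to 0.13), and for Col6a1 -0.08 (-0.27 to 0.12). The median reach of the interval to either side was 0.21 over the 43 genes, without adjustment for the number of genes tested. Smaller differences between the drugs could not be seen for a typical collagen. Larger ones also missed the adjusted threshold, as Col11a2 did at 0.54 and Col7a1 at 0.53. The collagens called with 1 drug and not the other are therefore not shown to differ between the drugs.

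Genes that fold, process, bind and break down collagen were also read off the same fit, in which 38.7% of all genes were called with cisplatin and 41.6% with oxaliplatin. Of 21 folding and modifying genes, 5 rose and 4 fell with cisplatin, and 5 rose and 6 fell with oxaliplatin (42.9% and 52.4% called). The cisplatin share is near that of all genes. Serpinh1, the collagen chaperone HSP47, averaged 144 ± 14.4 CPM with cisplatin, 127 ± 7.15 CPM with oxaliplatin and 106 ± 1.33 CPM with vehicle, and rose by 0.44 with cisplatin and 0.26 with oxaliplatin, the oxaliplatin call being lost with the GC and length trend removed. Fkbp10, which helps telopeptide crosslinking, rose by 0.44 and 0.59. P4ha3, a prolyl 4-hydroxylase subunit, averaged 6.72 ± 1.13, 6.00 ± 0.295 and 12.1 ± 0.738 CPM and fell by 0.85 with cisplatin and by 1.01 with oxaliplatin. Of 13 processing and crosslinking genes, 5 rose and 1 fell with cisplatin, and 4 rose and 2 fell with oxaliplatin (46.2% called with each). Pcolce, an enhancer of C-propeptide removal, rose by 0.55 and 0.61, whereas Adamts3, a procollagen N-propeptidase, had log2 fold changes of -0.78 and -0.69.

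Of 14 tested matrix proteins that bind fibrils, 7 rose and 7 did not pass with cisplatin, and 5 rose and 9 did not pass with oxaliplatin (50% and 35.7% called, beside 38.7% and 41.6% of all genes). Fmod, the small proteoglycan fibromodulin, rose by 1.28 and 1.29, and Fn1, fibronectin, by 0.70 and 0.80 with cisplatin and oxaliplatin. Sparc, a collagen-binding glycoprotein, rose by 0.40 and 0.32. Of 16 genes of basement membrane partners, 2 rose and 5 fell with each drug (43.8% called), near the shares of all genes. Agrn, the proteoglycan agrin, averaged 51.0 CPM with cisplatin, 47.6 CPM with oxaliplatin and 76.1 CPM with vehicle, and fell by 0.58 with cisplatin and by 0.68 with oxaliplatin. Pxdn, the peroxidase that crosslinks type IV collagen, had log2 fold changes of -0.40 and -0.35, and both calls were lost under library totals alone, as was the cisplatin call of Agrn. Of 10 tested collagen receptors, 1 rose and 2 fell with cisplatin, and 1 rose and 3 fell with oxaliplatin. These shares, 30% and 40%, are at or below those of all genes. Gpr56, a receptor of type III collagen, had log2 fold changes of -0.64 and -0.66, and Gpr126, a receptor of type IV collagen on Schwann cells, -0.34 and -0.38, with both of its calls lost under library totals alone.

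Of 15 tested genes of collagen breakdown or its inhibition, 7 rose and 1 fell with cisplatin, and 6 rose and 1 fell with oxaliplatin. That is 53.3% and 46.7% called, beside 38.7% and 41.6% of all genes. The full list includes the protease inhibitors Timp1, Timp2, Timp3, Timp4 and Reck. Its summed level was 1020.9 to 1048.5 CPM with cisplatin, 983.3 to 1019.6 CPM with oxaliplatin and 955.0 to 1063.7 CPM with vehicle. Ctsk, the collagen-cleaving cathepsin K, averaged 14.5 ± 3.80 CPM with cisplatin, 12.5 ± 1.35 CPM with oxaliplatin and 7.41 ± 0.257 CPM with vehicle. Mmp14, a membrane-bound collagenase, rose by 0.35 and 0.37, and Mrc2, an endocytic collagen receptor, by 0.52 and 0.64. Of 17 genes of the TGF-beta pathway, which induces collagen genes in fibroblasts, 4 rose and 2 fell with cisplatin, and 5 rose and 4 fell with oxaliplatin (35.3% and 52.9% called). The cisplatin share is below that of all genes. Tgfb3, a ligand, rose by 0.34 and 0.41. Ltbp3, which holds the latent ligand in the matrix, averaged 35.5 ± 1.83 CPM with cisplatin and 36.3 ± 3.10 CPM with oxaliplatin, against 65.9 ± 4.60 CPM with vehicle. Smad4, the shared signal transducer, had log2 fold changes of -0.32 and -0.27, and under library totals alone both calls were lost and the oxaliplatin sign turned, to 0.04.

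Markers of cell types that make collagen differed between the groups as well, and their part in the collagen results was not tested. Over all genes, 15.8% rose and 22.9% fell with cisplatin, and 17.5% rose and 24.1% fell with oxaliplatin. Of 8 fibroblast markers, of which Dcn and Lum are also in the list of fibril-binding proteins, 7 rose with cisplatin and 3 with oxaliplatin. Their summed level was 810 to 1037 CPM with cisplatin, 824 to 897 CPM with oxaliplatin and 636 to 808 CPM with vehicle. Of 10 endothelial markers, 7 rose with cisplatin and 9 with oxaliplatin, with sums of 146 to 185, 154 to 176 and 108 to 135 CPM. Of 7 markers of the leptomeninges, the membranes that continue onto the nerve roots, 6 rose with cisplatin and 7 with oxaliplatin, with sums of 300 to 559, 360 to 513 and 146 to 205 CPM.

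Pericyte and smooth muscle markers rose for 4 of 9 genes with cisplatin and 5 of 9 with oxaliplatin, with sums of 361 to 395, 377 to 386 and 356 to 372 CPM. Perineurial markers rose for 3 of 5 and 1 of 5, with sums of 211 to 238, 212 to 235 and 191 to 221 CPM. Myelinating Schwann cell markers rose for 6 of 8 and 4 of 8, with sums of 6009 to 7226, 5740 to 6043 and 4576 to 5423 CPM. Of 5 satellite glia markers, 2 rose and 2 fell with cisplatin, and 1 rose and 2 fell with oxaliplatin. Their sums were 2921.5 to 3113.2, 3099 to 3294.8 and 2479.4 to 2774.8 CPM, higher in every drug library than in every vehicle library. Of 10 sensory neuron markers, 5 fell with each drug, beside 22.9% of all genes with cisplatin and 24.1% with oxaliplatin, with sums of 14638 to 16524, 15299 to 16056 and 15985 to 16979 CPM. Neutrophil markers rose for 8 of 8 genes with cisplatin and 7 of 8 with oxaliplatin, with sums of 165 to 266, 85.7 to 200.2 and 42.0 to 99.7 CPM. Erythroid markers rose for 7 of 7 and 6 of 7, and macrophage markers for 6 of 7 with each drug.

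Markers of cartilage, bone and skin, tissues in which several of the lower collagens are best known, were read as well. Chondrocyte markers summed to 61.6 to 67.4 CPM with cisplatin, 56.1 to 60.1 CPM with oxaliplatin and 71.2 to 83.3 CPM with vehicle. Every drug library lay below every vehicle library, and the part of these markers in the collagen results was not tested. Matn1 and Matn3 were at 0 reads in at least 1 library. Of the 5 tested, 1 rose and 2 fell with cisplatin, and 1 fell with oxaliplatin (60% and 20% called). Over all genes, 15.8% rose and 22.9% fell with cisplatin, and 17.5% rose and 24.1% fell with oxaliplatin. Osteoblast and osteocyte markers summed to 20.2 to 25.0 CPM over the 9 libraries, with 1 of 5 tested lower with oxaliplatin. Keratinocyte markers summed to 2.30 to 3.51 CPM, with Krt5 at 0 reads in all 9. Skeletal muscle markers varied within groups, at 18.5 to 90.9 CPM with cisplatin, 14.9 to 106 CPM with oxaliplatin and 21.2 to 64.5 CPM with vehicle, and none passed edgeR's test, where 0 with cisplatin and 2 with oxaliplatin had an unadjusted p under 0.05.

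The calls were also followed through 23 alternative ways of processing the counts. With cisplatin, 8 of the 14 higher calls and 2 of the 7 lower calls were kept in all 23. With oxaliplatin, 12 of 16 higher and 2 of 8 lower calls were kept. Some values that missed the threshold were called under alternatives, such as Col6a5 with cisplatin in 10 of 23, Col6a3 with cisplatin in 8, and Col4a2 with cisplatin in 6 and with oxaliplatin in 7. The genes kept for both drugs were Col1a1, Col1a2, Col3a1, Col5a1, Col6a1, Col6a2 and Col26a1 on the higher side, and Col7a1 and Col24a1 on the lower side. The other lower calls lost significance or turned sign under at least 1 alternative, and all of these were lost under library totals alone.

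**Figure D5:**
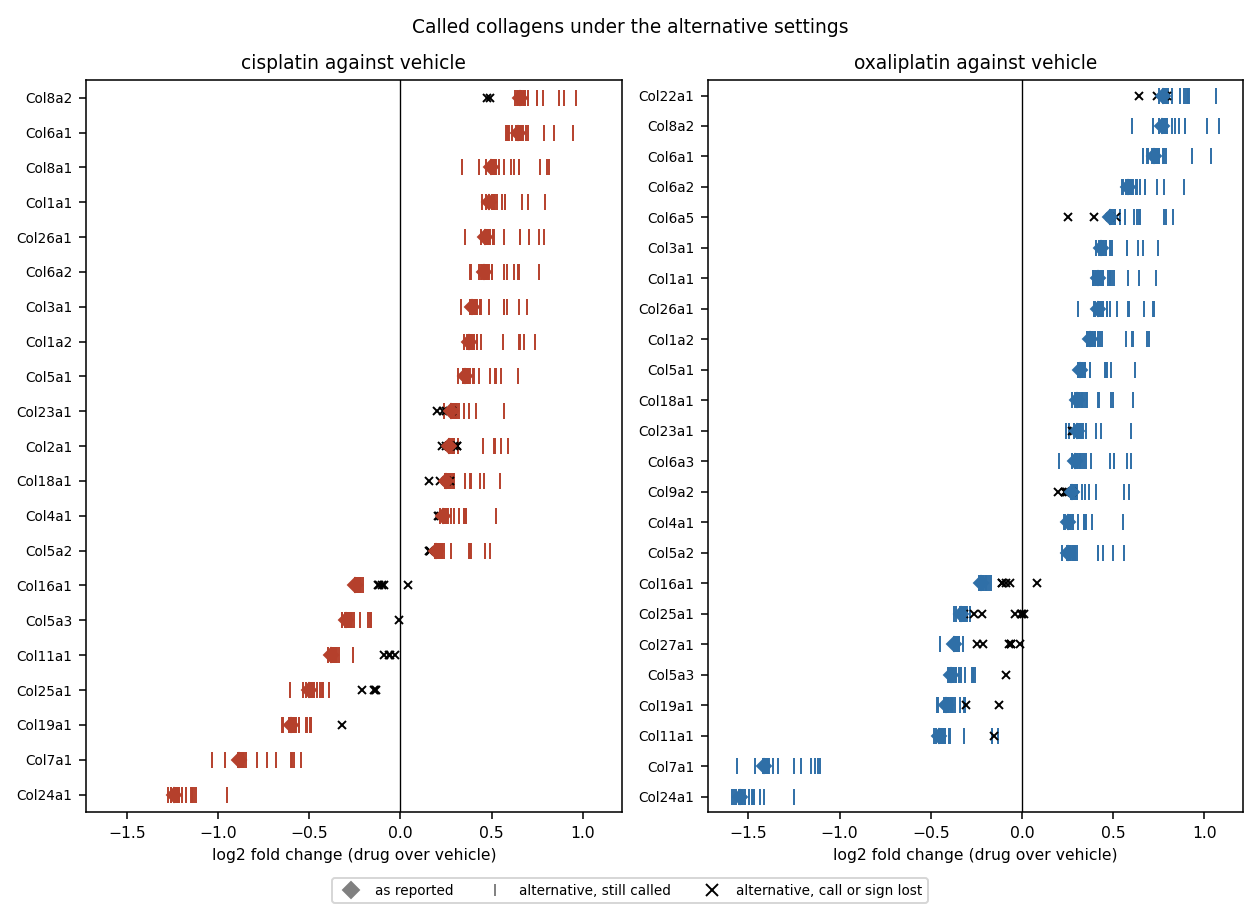
Log2 fold change (x axis, drug over vehicle) of each called collagen (y axis) as reported (diamonds) and under 23 alternatives (ticks where the call was kept, crosses where the call or the sign was lost), for cisplatin on the left and oxaliplatin on the right. Col24a1 and Col7a1 stay left of 0 with every call kept, whereas Col16a1, at -0.25 with cisplatin, crosses to 0.04 under library totals alone.

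Gene size was set beside the changes as a description across genes, which are not independent. Over 16380 tested genes with an annotated length, Spearman's rho between exon length and log2 fold change was -0.41 with both drugs, and over the 43 collagens it was -0.05 with cisplatin and -0.04 with oxaliplatin. The 14 collagens higher with cisplatin had a median genomic span of 76.3 kb (16.8 to 294 kb) and the 7 lower ones 190 kb (31.3 to 468 kb), with wide overlap. With oxaliplatin the medians were 91.3 kb for 16 higher and 156 kb for 8 lower collagens. Spearman's rho between genomic span and log2 fold change over the 43 collagens was -0.13 with cisplatin and -0.08 with oxaliplatin, against -0.33 over all genes with both. With the GC and length trend removed, 21 collagens rose and 4 fell with cisplatin, and 21 rose and 5 fell with oxaliplatin. In that setting 14.3% of all genes rose and 19.7% fell with cisplatin, and 14.7% rose and 19.8% fell with oxaliplatin.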

How the data were processed

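The authors deposited raw counts of reads per gene symbol for 9 libraries of stranded total RNA, with no normalization. Per the submitters' processing notes, STAR, SAMtools and HTSeq were used with mm10 (GRCm38); the sources used here give no versions, annotation or strand setting. Reads of antisense or overlapping genes therefore cannot be told apart. Reads assigned to no single gene (42.8 to 74.5% of recorded reads) were left out.

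All 9 libraries were fitted together in edgeR 4.0.16 (limma 3.58.1, R 4.3.3) with 1 term per group, TMM scaling, filterByExpr (17348 genes) and the quasi-likelihood F test, with Benjamini-Hochberg adjustment over all genes. The labels name each library a pool of 4 animals and state no pairing of libraries across groups. Replicates differed beyond sampling noise (chi-square per degree of freedom of at least 4.19), so no library was counted as a repeat. A floor of 3 counts equals 0.0710 to 0.188 CPM, depending on the library. The intervals of shares are exact Clopper-Pearson and, like the floors, cover counting error only. Levels per kb use the principal transcript of GENCODE M21, in which all 44 collagens and 91.6% of symbols matched. The procedure was tested on simulated counts.

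The collagen genes and the gene lists were chosen with earlier results of these data known, so no test was run on a list. Genes named by rule were the 3 most abundant per kb and the 4 of smallest p in each class. The rule also took called genes moving against the majority, genomic neighbour pairs and the 2 of smallest p in each pathway list. Some of these are given by group means or fold changes alone. Other genes named were chosen after their values were seen. List genes under older symbols (such as Gpr56 for Adgrg1) were matched by RefSeq synonym. Alternatives were DESeq2 1.42.0 and its size factors, limma-voom, library totals alone (also without vehicle library 2), no count filter or 1 CPM in 3 libraries, a replicate block, removal of a GC and exon length trend (mgcv 1.9.3), fits of 2 groups, an adjusted p of 0.1, removal of mitochondrial, ribosomal and small RNA genes, and each library left out.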

Additional observations from a re-analysis of the deposited data

How the results depend on the processing

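Against the 14 collagens called higher and 7 called lower with cisplatin, and the 16 and 8 with oxaliplatin, library totals alone gave 25 and 2, and 27 and 2, with collagen medians of 0.49 and 0.55 on the log2 scale. Of all genes, library totals alone put 34.5% higher and 5.29% lower with cisplatin, and 36.9% and 5.74% with oxaliplatin. Library totals without vehicle library 2 gave 24 higher with cisplatin, 25 higher and 5 lower with oxaliplatin, and medians of 0.37 and 0.41. There 34.2% of all genes were higher with cisplatin, and 35.5% were higher and 15% lower with oxaliplatin. With the GC content and exon length trend removed, 4 were lower with cisplatin and 5 with oxaliplatin, beside 19.7% and 19.8% of all genes. The cisplatin median of the collagens was then 0.35. The replicate block together with that trend also gave 4 and 5 lower, with a cisplatin median of 0.35, beside 18.6% and 19.1% of all genes lower. The same trend removed without vehicle library 2, an alternative added once the data had been seen, gave 4 and 5 lower, with medians of 0.40 and 0.35. Of all genes, 18% and 18.1% were lower there.

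Leaving out 1 library at a time gave 8 to 16 higher and 7 to 8 lower with cisplatin, 12 to 21 higher and 6 to 9 lower with oxaliplatin, and medians of 0.16 to 0.29 with cisplatin and 0.19 to 0.28 with oxaliplatin. The shares of all genes moved too. They were 10.2 to 19.2% higher and 16.8 to 22.2% lower with cisplatin, and 11.1 to 20.4% and 17.9 to 23.7% with oxaliplatin. The count of 8 higher collagens came without cisplatin library 1, where 10.8% of all genes rose. The direct comparison of the drugs gave 0 collagens in every alternative. The causes of these differences were not tested.

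Signs turned mostly for genes near 0. With cisplatin, Col15a1 was at 0.28 with library totals, 0.20 with totals without vehicle library 2, 0.022 with no filter, 0.0048 with the 1 CPM filter, 0.018 with the trend removed, 0.016 with block and trend, 0.12 with the trend removed without vehicle library 2, and -0.073 to 0.060 without single libraries. Col27a1 was at 0.068 with library totals, 0.14 with the trend removed, 0.13 with block and trend, and 0.18 with the trend removed without vehicle library 2. Col28a1 was at -0.017 with the trend removed, with or without the block, and at -0.014 to 0.041 without single libraries. Col16a1 was at 0.044 with library totals. Without single libraries, Col4a5 ranged over -0.052 to 0.11 and Col4a4 over -0.016 to 0.17. With oxaliplatin, library totals took Col15a1 to 0.19 (0.11 without vehicle library 2), Col16a1 to 0.080 and Smad4 to 0.038. Col4a3 ranged over -0.051 to 0.22 without single libraries, and Col25a1 was at 0.0084 with the trend removed without vehicle library 2.

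Replicate numbers are shared between the groups. Deviations of same-numbered libraries from their group means correlated at -0.21 to 0.17, and those of differently numbered libraries at -0.32 to 0.28. These values cannot show whether a number marks a shared batch or day, and the labels name none. The replicate block alone gave 13 higher and 7 lower with cisplatin and 17 and 8 with oxaliplatin. Of all genes, 15.5% were higher and 22.8% lower with cisplatin there, and 17.2% and 24% with oxaliplatin. Depth limits Col4a6, Col6a4, Col6a6, Col9a1, Col10a1, Col13a1, Col17a1 and Col22a1, each with fewer than 20 reads in at least 1 library.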
